A study of Mus musculus with 10 samples.

Results

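Mature outer hair cells (OHCs) were compared here with converted hair cells (cHCs), cells that began as supporting cells and were turned toward the hair cell fate by ectopic Atoh1. The comparison takes 4 of the 10 bulk RNA-seq libraries of the series: 2 of OHCs (P22) and 2 of cHCs (P33), all of their kind in the series. Each library was identified by the number in the name of the count table, since 4 of the 10 sample records held the table of another library. With the tables taken as attached, no gene was called (edgeR, 1978 genes at an unadjusted p under 0.05). In the order of their numbers they are called OHC-A, OHC-B, cHC-A and cHC-B (n = 2 in each group). The other 6 libraries, 2 each of OHCs (P7), inner hair cells (IHCs) and supporting cells (SCs), entered the same statistical model and are used for reference. The question was which genes still separate the converted cells from the cells they are meant to replace.

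The OHCs came from mice heterozygous for the prestin-YFP knock-in, whose motor protein is fluorescent, without tamoxifen. Their titles carry the numbers 21 and 22, and the methods text gives ages 1 day later. The cHCs came from mice with Fgfr3-iCreER, the Atoh1-HA transgene, the Chrna9-EGFP reporter and the Rosa26 CAG-loxP-stop-loxP-tdTomato reporter, given tamoxifen at P12 and P13 and collected at P33. Fgfr3-iCreER is active in Deiters' and pillar cells, where it switches on Atoh1-HA, driven by the CAG promoter, and tdTomato. Cells with both tdTomato and EGFP were picked. The groups thus differ in age, genotype and tamoxifen as well as in origin. For reference, SCs carried Fgfr3-iCreER and tdTomato, received tamoxifen at the same ages as the cHC mice and were taken at P26 and P27, IHCs carried Pvalb-Cre and tdTomato and were taken at P74 and P75, and OHCs (P7) are labelled prestin-YFP, although the methods text lists for them an inducible prestin Cre line with the tdTomato reporter and tamoxifen in the first postnatal days. Each library was made from a small pool of handpicked cells. The background strain and the number of animals per library are not given in the sources used here. The libraries of a cell type are described as biological duplicates, but the sources do not say whether they came from separate animals. For OHCs (P22) and cHCs, the sex-linked genes given below place the 2 libraries of each group in different animals. The p-values measure the spread between these libraries, which in both groups includes any difference between the sexes.

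OHCs amplify sound by changing length with membrane voltage, a movement driven by prestin (*Slc26a5*). They sense deflection of a bundle of actin-filled stereocilia through channels gated by tip links, clear calcium through buffers and pumps, and are inhibited by efferent fibres through a nicotinic receptor coupled to a potassium channel. Atoh1 is the basic helix-loop-helix factor that starts hair cell differentiation, and it is normally silenced as hair cells mature. Supporting cells of the same epithelium are kept from becoming hair cells by Notch signalling through the Hes and Hey repressors.

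Between 19483713 and 33162033 reads were counted on genes in these 4 libraries, so that 1 count was worth 0.0253 to 0.0881 CPM after TMM scaling. Levels are given in CPM scaled in this way, which are not corrected for gene length and are compared only within a gene. OHC-A stood apart: 14332 genes had a count in it against 16732 to 18333 in the other 3 libraries, mitochondrial genes took 38.4% of its gene reads against 18.1% to 27.3%, and 25.5% of its reads had not been aligned against 12.7% to 15.4%. Its TMM factor was 0.583, against 1.11 to 1.20 in the others. Across genes, Spearman's rho of counts was 0.829 between the OHC libraries, 0.837 between the cHC libraries and 0.699 to 0.774 between a library of one group and a library of the other, over 23415 genes that share annotation and depth within a library. In OHC-A and cHC-B the Y-linked genes *Ddx3y*, *Eif2s3y*, *Kdm5d* and *Uty* were at 25 CPM or more and *Xist* at 2.86 CPM or less. In OHC-B and cHC-A these Y-linked genes were at 0.168 CPM or less and *Xist* at 840.3 CPM or more. Each group thus held 1 library of the male and 1 of the female pattern, from different animals. The library numbers form a low series (SCs, cHCs and OHCs (P7)) and a high series (OHCs (P22) and IHCs), and this split and the difference between OHCs (P22) and cHCs cannot be told apart.

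The labelled cell types were first checked against some of their markers. *Myo6*, a hair cell myosin, was at 2176 and 2655 CPM in OHC-A and OHC-B and at 2771 and 2855 CPM in cHC-A and cHC-B, and *Ptprq*, a stereocilia surface phosphatase, was at 1421 and 1363 CPM in OHC-A and OHC-B and at 1361 and 1454 CPM in cHC-A and cHC-B. *Pou4f3*, a transcription factor that hair cells need to survive, was at 483 and 559 against 235 and 329 CPM in the same order of libraries. None of these 3 genes passed the test between the groups, with log2 fold changes of -0.22 ± 0.31, -0.02 ± 0.32 and 0.89 ± 0.44 (SE). Both groups therefore held these hair cell transcripts at high levels. Of the other hair cell markers set for this check, *Otof* did not pass either, but *Pvalb* was called lower in OHCs, with values given below. *Ptprq* was not in that set, and values of *Myo7a* and *Calb1*, which were, are not reported here. Defining supporting cell transcripts were near 0 in the OHC libraries, where *Sox10* was at 0.0881 and 0.126 CPM and *Gjb2* at 0.793 and 0.379 CPM, but *Id4* and *Glul* were at 33.7 and 57.9 and 12.5 and 17.2 CPM there. In bulk libraries, fewer cells of a type and less RNA per cell cannot be told apart.

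Of 16891 genes tested, 196 were higher in OHCs (1.16% of all genes tested) and 341 were lower (2.02%), by edgeR's quasi-likelihood test in 1 model of all 10 libraries with an adjusted p under 0.05. In each of these 537 genes the OHC libraries lay wholly above or wholly below the cHC libraries, as they did, with no test, in 21% and 28.1% of all tested genes. No called gene had an absolute log2 fold change under 1.86. Among them, 49 of the 341 lower genes had no count in either OHC library and 4 of the 196 higher genes had none in either cHC library. The shares of 1.16% and 2.02% are the background for the counts of called members in each gene list below. The median log2 fold change of all tested genes was -0.185 with TMM and -0.147 with RLE factors, so changes are read relative to a small negative shift. Without OHC-A the counts fell to 87 higher and 112 lower genes, without OHC-B they were 317 and 420, without cHC-A 144 and 269, and without cHC-B 129 and 354. In all, 67 higher and 96 lower genes were called in each of the 4 fits that left out 1 library. The plot of mean levels shows the called genes on either side of the diagonal.

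**Figure D1:**
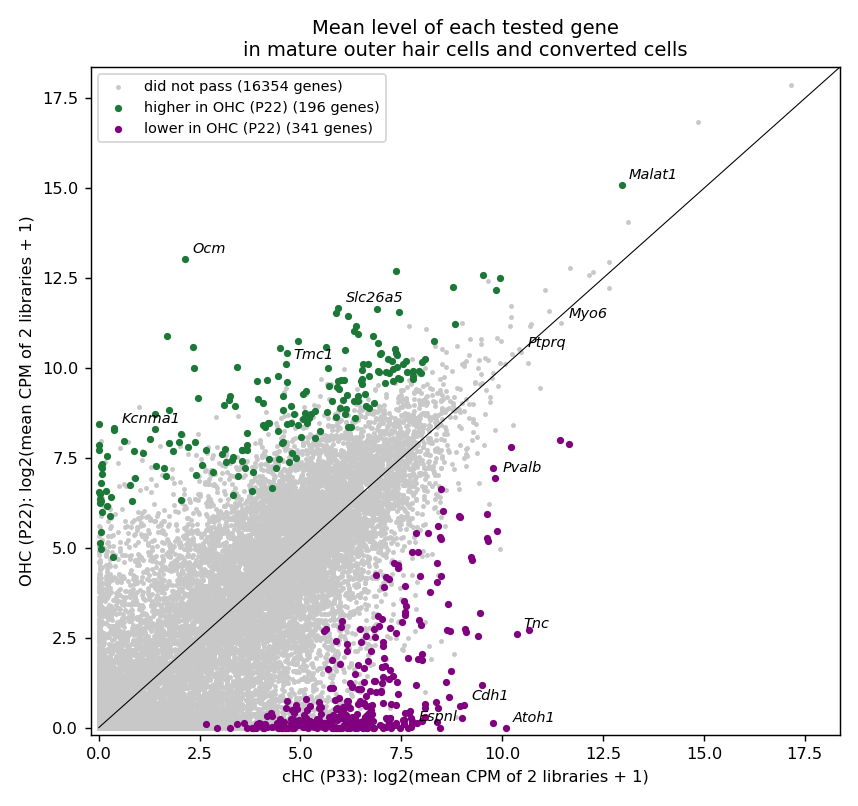
Mean level of each of the 16891 tested genes in cHCs (x axis) and OHCs (P22) (y axis), both as log2(mean CPM of 2 libraries + 1), with 196 genes called higher in green and 341 called lower in purple. *Myo6* and *Ptprq* lie on the diagonal, *Ocm* far above it, and many lower genes lie along the bottom edge.

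Most genes that define OHCs were higher in the native cells. Of 10 listed outer hair cell genes, all tested, 7 were higher in OHCs and none was lower, against 1.16% and 2.02% of all tested genes. The other 3 also had positive log2 fold changes, and the list median was 4.63 against -0.185 over all genes. The largest difference was in *Ocm*, oncomodulin, the calcium buffer that OHCs use (mm9 chr5:144780673-144787539, − strand), which was at 7557 and 9268 CPM in OHC-A and OHC-B and at 4.97 and 1.9 CPM in cHC-A and cHC-B. Its level was 2448 times higher in OHCs (log2 fold change 11.26 ± 0.86, adjusted p = 0.000277). *Slc26a5*, which encodes prestin (mm9 chr5:21316473-21371422, − strand), was at 3786 and 2746 CPM in OHC-A and OHC-B and at 97.5 and 23.4 CPM in cHC-A and cHC-B. The groups were far apart and the cHC libraries differed from each other by several fold (log2 fold change 5.76 ± 0.7, adjusted p = 0.00343). Prestin was tagged by the knock-in and served to pick the OHCs, so its level is not independent of how the cells were chosen.

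*Lbh*, a transcriptional regulator, was at 1587 and 1832 CPM in OHC-A and OHC-B and at 42.4 and 17.1 CPM in cHC-A and cHC-B (log2 fold change 5.85 ± 0.74, adjusted p = 0.00434). *Strip2*, listed by its older symbol *Fam40b*, was at 2515 and 2119 CPM in OHC-A and OHC-B and at 76.7 and 86.6 CPM in cHC-A and cHC-B, with little spread within either pair (log2 fold change 4.83 ± 0.41, adjusted p = 0.000558). *Lmod3*, a leiomodin that nucleates actin filaments, was at 558 and 344 CPM in OHC-A and OHC-B and at 4.04 and 0.684 CPM in cHC-A and cHC-B (log2 fold change 7.59 ± 0.9, adjusted p = 0.00302). *Dnm3*, a dynamin, was at 1968 and 932 CPM in OHC-A and OHC-B and at 46.5 and 88 CPM in cHC-A and cHC-B (log2 fold change 4.43 ± 0.75, adjusted p = 0.0115). The non-coding gene *Dnm3os*, which lies within *Dnm3* on the opposite strand, also rose, and reads of the pair cannot be told apart without strand. *Chrna10*, a subunit of the efferent nicotinic receptor, was at 1465 and 893 CPM in OHC-A and OHC-B and at 117 and 189 CPM in cHC-A and cHC-B (log2 fold change 2.94 ± 0.51, adjusted p = 0.0119). It lost its call without OHC-A (adjusted p = 0.0535) and without cHC-A (adjusted p = 0.0712), whereas the other 6 were called in each of the 4 fits that left out 1 library.

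The remaining 3 genes of the list lay higher in both OHC libraries than in either cHC library but did not pass. With no test, 21% of all tested genes showed this order. *Ikzf2*, the zinc finger factor Helios of mature OHCs, was at 501 and 491 CPM in OHC-A and OHC-B and at 62.7 and 22.5 CPM in cHC-A and cHC-B (log2 fold change 3.54 ± 0.91, adjusted p = 0.0635). *Aqp11* was at 506 and 289.6 against 56.5 and 21.1 CPM (adjusted p = 0.119). The reference libraries place these levels: *Ocm* was at 3158 and 3397 CPM in OHCs (P7) and at 3.16 and 2.71 CPM in SCs, so that the cHC values lay on either side of those of SCs. *Slc26a5* was at 1094 and 1060.0 CPM in OHCs (P7) and at 0.531 and 0.754 CPM in SCs, so that cHCs lay between them. The plot of single libraries shows both patterns.

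**Figure D2:**
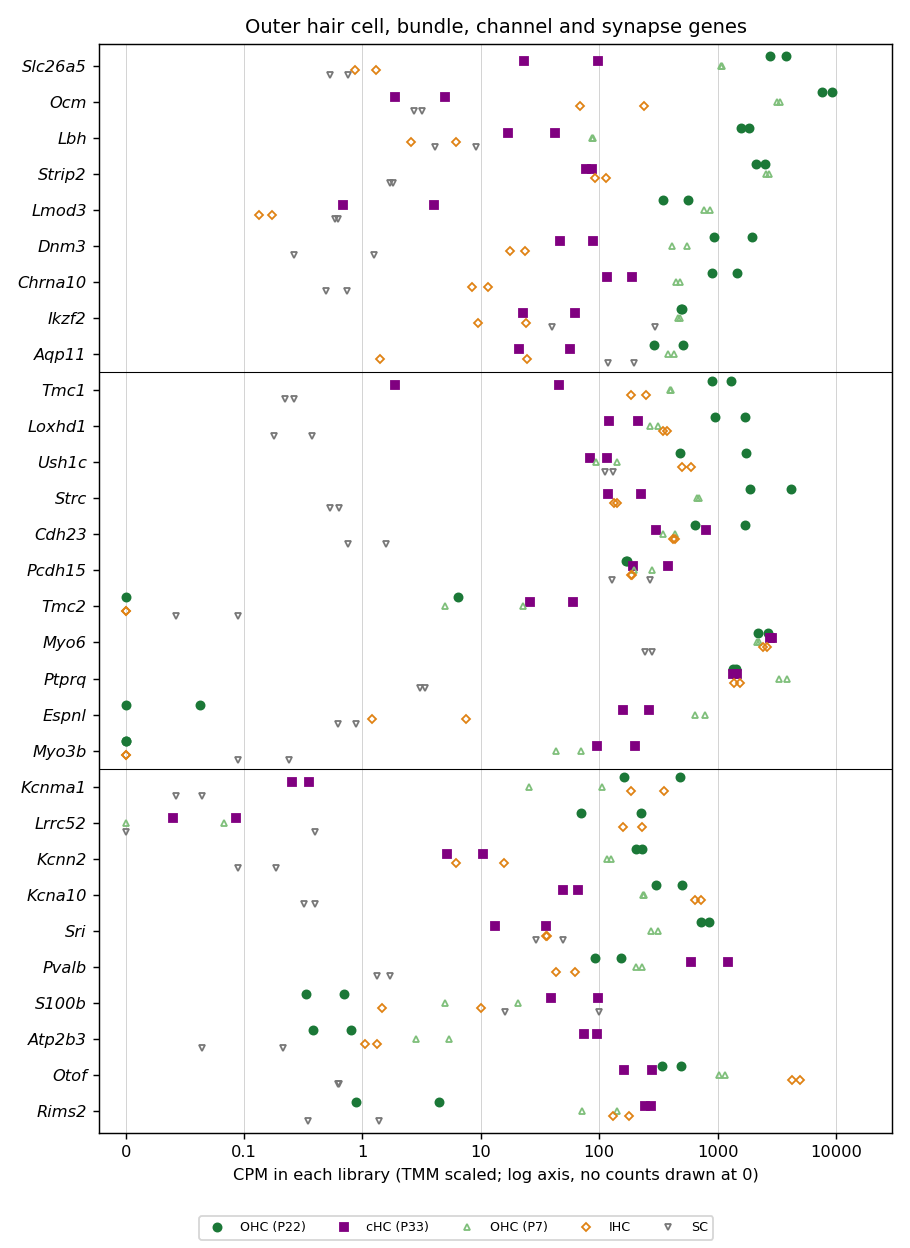
CPM of 30 genes in each of the 10 libraries on a log axis, with libraries without a count drawn at 0, and with OHC genes on top, bundle genes in the middle and channel, calcium and synapse genes below. Filled circles are OHCs (P22) and filled squares cHCs, 2 libraries each, and open symbols are the reference cell types. The circles lie to the right of the squares for *Ocm* and *Kcnma1*, over each other for *Myo6*, and far to the left for *Espnl*.

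Among 13 listed genes of the transduction channel and tip link, 3 were higher in OHCs and none was lower, against 1.16% and 2.02% of all tested genes. *Tmc1*, the pore-forming subunit of the mature channel (mm9 chr19:20857948-21028692, − strand), was at 1301 and 897 CPM in OHC-A and OHC-B and at 46.2 and 1.9 CPM in cHC-A and cHC-B (log2 fold change 5.52 ± 1.14, adjusted p = 0.0258). Its level in cHC-B was far under that in cHC-A. *Loxhd1*, which encodes a protein of the stereocilia membrane, was at 1692 and 949 CPM in OHC-A and OHC-B and at 122 and 211 CPM in cHC-A and cHC-B (log2 fold change 2.99 ± 0.53, adjusted p = 0.0134), and *Ush1c*, the scaffold harmonin, was at 1725 and 482 against 84.3 and 117 CPM (log2 fold change 3.45 ± 0.63, adjusted p = 0.0143). *Tmc2*, the channel subunit of immature bundles, pointed the other way, at 0 and 6.39 CPM in OHC-A and OHC-B and at 60.5 and 26.2 CPM in cHC-A and cHC-B, and did not pass (adjusted p = 0.36). The tip link cadherins did not pass either: *Cdh23* was at 1691 and 640.1 against 301 and 796 CPM and *Pcdh15* at 171 and 167 against 193 and 385 CPM. None of the 3 calls held without OHC-A, where the adjusted p was 0.059 for *Loxhd1*, 0.0605 for *Tmc1* and 0.0745 for *Ush1c*. Without cHC-A *Loxhd1* and *Ush1c* lost theirs as well (adjusted p = 0.0718 and 0.0624).

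Of 33 stereocilia genes, 1 was higher, 2 were lower and 30 did not pass, against shares of 1.16% and 2.02% of all tested genes, so nothing is read from these counts about the list. *Strc*, stereocilin of the links that attach OHC bundles to the tectorial membrane, was at 4182 and 1876 CPM in OHC-A and OHC-B and at 119 and 228 CPM in cHC-A and cHC-B (log2 fold change 4.13 ± 0.53, adjusted p = 0.00463). *Espnl*, an espin-like actin regulator (mm9 chr1:93218652-93244880, + strand), was at 0 and 0.0421 CPM in OHC-A and OHC-B and at 159.7 and 265 CPM in cHC-A and cHC-B (adjusted p = 0.00116). There was 1 count in OHC-B and none in OHC-A, so the ratio of cHCs to OHCs was 7456 (95% interval of the count 1338 to 294480.0), counting error only. *Myo3b*, a class III myosin that moves to stereocilia tips, had no count in either OHC library and was at 96.5 and 203 CPM in the cHC libraries, at least 566-fold lower in OHCs than in cHCs when 3 counts per library are taken as the floor (adjusted p = 0.00511). These 3 calls were also made in each of the fits that left out 1 library. The list held 1 higher and 3 lower members without OHC-A, 3 and 4 without OHC-B, 3 and 3 without cHC-A and 2 and 2 without cHC-B. In OHCs (P7) *Espnl* was at 784 and 646 CPM and *Myo3b* at 42.8 and 70.4 CPM, and in SCs they were at 0.876 and 0.621 and 0.239 and 0.0887 CPM. Both genes were thus present in young OHCs and near 0 in SCs. The actin-bundling and tip-complex genes *Myo15* (7596 and 3466 against 669 and 927 CPM), *Espn* (353 and 314 against 22.1 and 88.1 CPM) and *Grxcr1* (359.6 and 201 against 28.4 and 54.7 CPM) lay higher in both OHC libraries without passing. With no test, 21% of all tested genes did so, and 13 of the 33 listed genes had a negative log2 fold change.

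Of 20 listed channel genes, 18 were tested, 4 were higher in OHCs and none was lower, against 1.16% and 2.02% of all tested genes. *Kcnma1*, the BK potassium channel that gives mature hair cells their fast current (mm9 chr14:24117983-24622526, − strand), was at 479 and 161 CPM in OHC-A and OHC-B and at 0.255 and 0.355 CPM in cHC-A and cHC-B (log2 fold change 10 ± 1.11, adjusted p = 0.00202). *Lrrc52*, an auxiliary subunit of BK-type channels, was at 227 and 70.4 CPM in OHC-A and OHC-B and at 0.085 and 0.0253 CPM in cHC-A and cHC-B (adjusted p = 0.0101). Only 3 counts were found in the cHC libraries together, so the ratio of OHCs to cHCs was 3118 (95% interval of the count 1067 to 15119). Young OHCs also nearly lacked *Lrrc52*, with no P7 library above 0.0671 CPM, and neither SC library exceeded 0.399 CPM. The IHC libraries held it at 232 and 157 CPM. Among hair cells, a near absence of *Lrrc52* was thus not particular to cHCs. *Kcnn2*, the SK2 channel that turns efferent calcium entry into inhibition, was at 228 and 203 CPM in OHC-A and OHC-B and at 5.23 and 10.4 CPM in cHC-A and cHC-B (log2 fold change 4.78 ± 0.82, adjusted p = 0.0117), and *Kcna10*, a cyclic nucleotide-regulated potassium channel, was at 501 and 299 against 49.1 and 66.8 CPM (log2 fold change 2.78 ± 0.49, adjusted p = 0.013). Both BK genes were called in each fit that left out 1 library, whereas *Kcna10* lost its call without OHC-A and without cHC-A (adjusted p = 0.0529 and 0.0891) and *Kcnn2* without cHC-A (adjusted p = 0.0766). In SCs *Kcnma1* was at 0.0265 and 0.0444 CPM, and in IHCs at 187 and 350.2 CPM. The cHCs were thus below 1 CPM, near the SCs, for a channel that mature inner and outer hair cells both carried at over 100 CPM.

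The efferent synapse list held 8 genes, of which 7 were tested, 2 were higher and none was lower, against 1.16% and 2.02% of all tested genes. Both higher genes, *Chrna10* and *Kcnn2*, are given above. *Chrna9*, the partner of *Chrna10*, was at 405 and 134 CPM in OHC-A and OHC-B and at 669 and 646 CPM in cHC-A and cHC-B and did not pass (log2 fold change -1.29 ± 0.62, adjusted p = 0.285). A *Chrna9*-EGFP reporter was used to pick the cHCs, so this level is not independent of the choice of cells. *Chrng*, the fetal muscle subunit of the nicotinic receptor, had no count in either OHC library and was at 12.2 and 164 CPM in the cHC libraries (adjusted p = 0.0667). The list had a median log2 fold change of -2.81 even though both called members were higher.

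Ribbon synapse genes mostly did not pass: 27 of 29 were tested, none was higher and 2 were lower. The shares of all tested genes are 1.16% and 2.02%, so nothing is read from these counts about the list. *Rims2*, an active zone scaffold, was at 0.881 and 4.42 CPM in OHC-A and OHC-B and at 243 and 273 CPM in cHC-A and cHC-B (log2 fold change -6.58 ± 1.04, adjusted p = 0.00925), and was called in each fit that left out 1 library. *Unc13b*, a vesicle priming factor, was at 0.176 and 0 CPM in OHC-A and OHC-B and at 14.5 and 25.9 CPM in cHC-A and cHC-B (adjusted p = 0.0313), on 2 counts in the OHC libraries together, a ratio of cHCs to OHCs of 354 (95% interval of the count 98.1 to 2925), and lost its call without OHC-A (adjusted p = 0.0539) and without OHC-B (adjusted p = 0.0791). *Otof*, the calcium sensor of hair cell exocytosis, was at 337 and 489.7 CPM in OHC-A and OHC-B and at 279 and 161 CPM in cHC-A and cHC-B (log2 fold change 0.91 ± 0.39, adjusted p = 0.236). *Slc17a8*, the vesicular glutamate transporter typical of IHCs, was at 52.5 and 35.3 against 1.87 and 0 CPM (adjusted p = 0.0588). The calcium channel gene *Cacna1d* was at 3344 and 1261 against 228 and 183 CPM (adjusted p = 0.155).

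Calcium-handling genes moved in both directions. Of 17 tested genes, 2 were higher and 3 lower in OHCs, against 1.16% and 2.02% of all tested genes. Beside *Ocm*, the higher gene was *Sri*, sorcin, at 845 and 729 CPM in OHC-A and OHC-B and at 13.1 and 35.5 CPM in cHC-A and cHC-B (log2 fold change 5.01 ± 0.65, adjusted p = 0.00463). The lower genes were *Pvalb*, parvalbumin, at 91.4 and 153 CPM in OHC-A and OHC-B and at 598 and 1225 CPM in cHC-A and cHC-B (log2 fold change -2.9 ± 0.55, adjusted p = 0.0174), *S100b*, at 0.705 and 0.337 against 97.5 and 39.3 CPM (log2 fold change -7.05 ± 1.63, adjusted p = 0.042), and *Atp2b3*, a plasma membrane calcium pump, at 0.793 and 0.379 against 74 and 96.5 CPM (log2 fold change -7.19 ± 1.46, adjusted p = 0.0239). The buffer genes *Ocm* and *Pvalb* thus moved in opposite directions. *Atp2b2*, the pump of hair bundles, was at 3024 and 1361 against 272 and 276 CPM and did not pass (adjusted p = 0.149). Without OHC-A, *Ocm* and *Sri* were still called and none of the lower genes was (adjusted p = 0.0938 for *Pvalb*, 0.157 for *S100b* and 0.0944 for *Atp2b3*). *Pvalb* also lost its call without cHC-B (adjusted p = 0.111), *S100b* without OHC-B and without cHC-A (adjusted p = 0.118 and 0.117), and *Atp2b3* without each of the other 3 libraries (adjusted p = 0.0765, 0.091 and 0.124).

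The fold changes of all lists, with the called members marked, are shown in the plot by gene list.

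**Figure D3:**
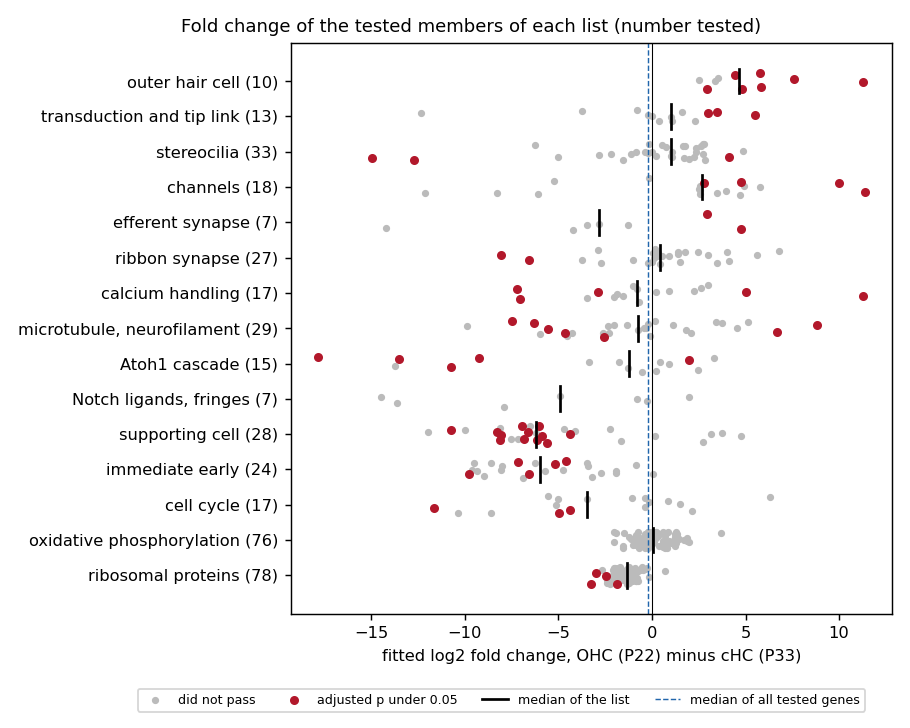
Fitted log2 fold change, OHCs (P22) minus cHCs, of the tested members of 15 gene lists, with the number tested in parentheses. Red points passed at an adjusted p under 0.05, black bars are list medians and the dashed line is the median of all tested genes. The median of the outer hair cell list is 4.63 and that of the supporting cell list is -6.18.

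The list of the Atoh1 cascade held 17 genes, of which 15 were tested, 1 was higher in OHCs and 4 were lower, against 1.16% and 2.02% of all tested genes. *Atoh1* itself (mm9 chr6:64679140-64681227, + strand) had no count in either OHC library and was at 363 and 1808 CPM in cHC-A and cHC-B. This is at least 4108-fold lower in OHCs (adjusted p = 0.00528). Counts from the transgene and from the endogenous gene are not separated, and ectopic Atoh1 is part of how cHCs were made, so this level is given as a description. In the reference libraries *Atoh1* was at 6.43 and 2.15 CPM in OHCs (P7) and at 1.91 and 0.266 CPM in SCs. *Nhlh1*, a helix-loop-helix gene of early neurons and hair cells, was at 0 and 0.252 CPM in OHC-A and OHC-B and at 148 and 370.0 CPM in cHC-A and cHC-B (log2 fold change -10.72 ± 1.34, adjusted p = 0.00511). *Srrm4*, a splicing factor for neural microexons, was at 0.617 and 0.294 CPM in OHC-A and OHC-B and at 201 and 343 CPM in cHC-A and cHC-B (log2 fold change -9.26 ± 1.45, adjusted p = 0.00905), and *Insm1*, a zinc finger gene of young OHCs, had no count in the OHC libraries and was at 18.7 and 89.9 CPM in the cHC libraries, at least 206-fold lower (adjusted p = 0.0363).

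*Rbm24*, an RNA-binding protein of hair cells, was the higher member, at 866 and 901 CPM in OHC-A and OHC-B and at 162 and 278 CPM in cHC-A and cHC-B (log2 fold change 2.0 ± 0.46, adjusted p = 0.039). *Gfi1*, which represses neuronal genes in hair cells, was at 203 and 439.9 CPM in OHC-A and OHC-B and at 7.9 and 57.1 CPM in cHC-A and cHC-B (log2 fold change 3.3 ± 0.96, adjusted p = 0.0958), and *Isl1*, a LIM homeodomain factor, at 281 and 235 CPM in OHC-A and OHC-B and at 36.7 and 56.2 CPM in cHC-A and cHC-B (log2 fold change 2.47 ± 0.73, adjusted p = 0.099). Neither passed. *Atoh1*, *Nhlh1* and *Srrm4* were called in each of the fits that left out 1 library. *Rbm24* was called in none of them (adjusted p = 0.102 without OHC-A, 0.0603 without OHC-B, 0.287 without cHC-A and 0.073 without cHC-B), and *Insm1* only without cHC-A (adjusted p = 0.124 without OHC-A, 0.0843 without OHC-B and 0.197 without cHC-B).

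Of 28 listed supporting cell genes, all tested, 12 were lower in OHCs, none was higher and 16 did not pass. Over all tested genes, 2.02% were lower and 1.16% higher. The list had a median log2 fold change of -6.18, or -6.14 with genes absent from a group set to their bound. The 12 genes fall into few families. From the Notch pathway, *Notch1* was at 0.0881 and 0.126 CPM in OHC-A and OHC-B and at 33.1 and 39.1 CPM in cHC-A and cHC-B (log2 fold change -8.3 ± 1.4, adjusted p = 0.0113), its ligand *Jag1* at 0.0881 and 1.26 against 80.8 and 60.3 CPM (log2 fold change -6.62 ± 1.12, adjusted p = 0.0113), and its effectors *Hes1*, *Hey1* and *Hey2* at 0.0881 and 0.0841 against 12.7 and 9.73 CPM, 1.15 and 1.14 against 60 and 50.7 CPM and 0 and 0.0421 against 92 and 16 CPM (adjusted p = 0.047, 0.024 and 0.0103). The inhibitors of helix-loop-helix factors *Id1*, *Id2* and *Id3* were at 0.176 and 0.126 against 55.4 and 30.1 CPM, 0.264 and 4.33 against 161 and 111 CPM and 0.529 and 0.505 against 47.1 and 26.3 CPM (adjusted p = 0.0056, 0.0207 and 0.0117). The Sox factors *Sox9* and *Sox10* were at 1.23 and 0.0841 against 126 and 16 CPM and 0.0881 and 0.126 against 56.9 and 5.65 CPM (adjusted p = 0.0238 and 0.0327). *Lgr5*, a receptor that enhances Wnt signalling, was at 1.15 and 1.22 against 60.3 and 92.8 CPM and the cell cycle inhibitor *Cdkn1b* (p27Kip1) at 3.17 and 5.26 against 121 and 57.5 CPM (adjusted p = 0.0342 and 0.0206).

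The cHC libraries did not hold these genes evenly. *Sox9*, *Sox10*, *Hey2*, *Gjb2*, *Slc1a3* and *Glul* were several times higher in cHC-A than in cHC-B, whereas *Notch1*, *Jag1*, *Hes1*, *Hey1* and *Fgfr3* were at like levels in both. *Gjb2*, connexin 26, was at 0.793 and 0.379 CPM in OHC-A and OHC-B and at 83.3 and 1.72 CPM in cHC-A and cHC-B (adjusted p = 0.0534), *Sox2*, a factor of progenitors and supporting cells, had no count in the OHC libraries and was at 30.9 and 6.92 CPM in the cHC libraries (adjusted p = 0.053), and *Fgfr3*, whose promoter drives the Cre, was at 4.41 and 1.89 CPM in OHC-A and OHC-B and at 458 and 430.4 CPM in cHC-A and cHC-B (adjusted p = 0.0764). The summed level of the 28 genes was 113 and 116 CPM in OHC-A and OHC-B, 2053 and 1411 CPM in cHC-A and cHC-B and 4511 and 4636 CPM in the SC libraries. In OHCs (P7) the sum was 692 and 417 CPM, and in IHCs 1740 and 1674 CPM. A sum in the range of the cHC libraries was thus not particular to cHCs. Without OHC-A, 4 members were still called, *Sox9*, *Jag1*, *Id1* and *Id2*, and these were called in each fit that left out 1 library. Without OHC-B, cHC-A and cHC-B the counts were 8, 9 and 15. Whether the counts in the cHC libraries come from converted cells or from supporting cells picked with them was not tested.

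**Figure D4:**
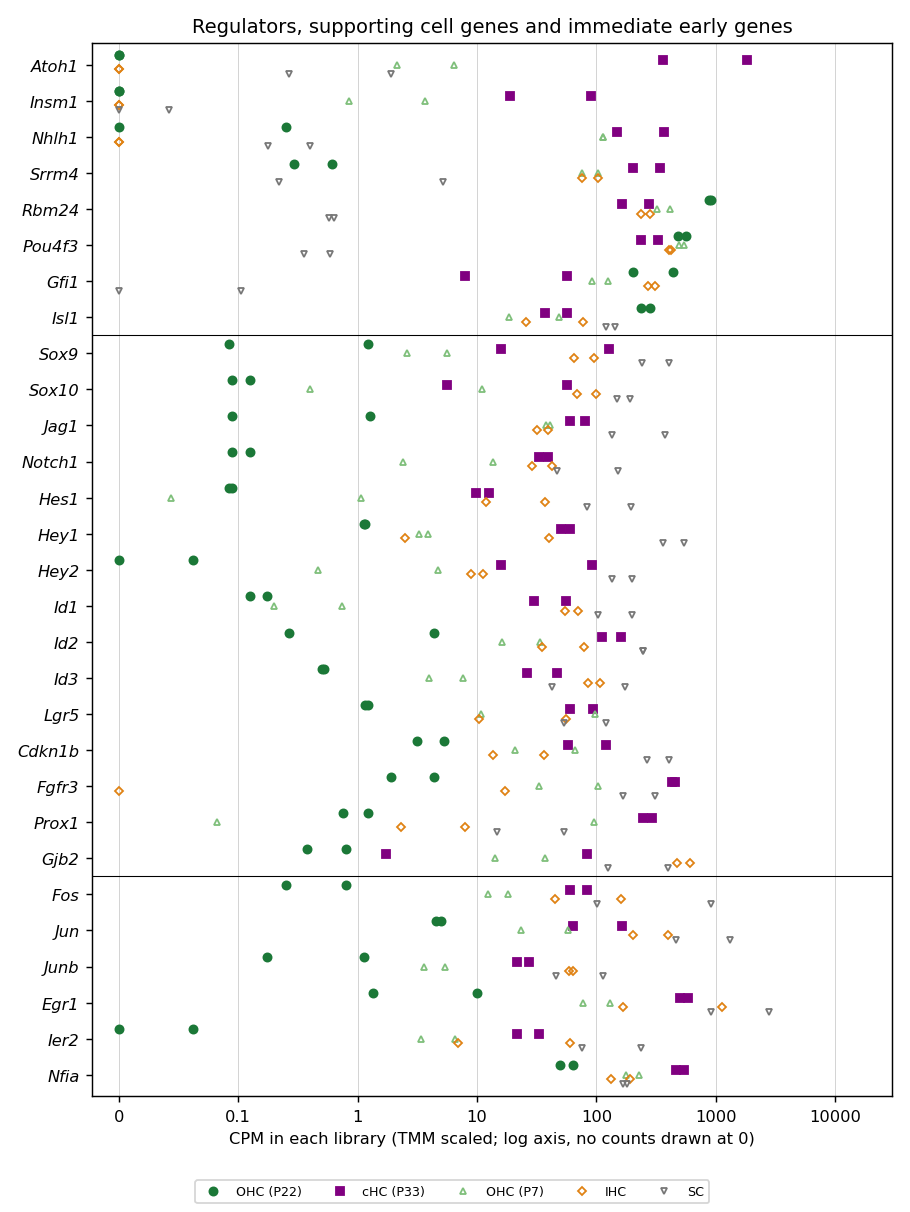
CPM of 29 genes in each of the 10 libraries on a log axis, with libraries without a count drawn at 0: genes of the Atoh1 cascade on top, supporting cell genes in the middle, immediate early genes and *Nfia* below. Filled circles are OHCs (P22) and filled squares cHCs, 2 libraries each, and open symbols are the reference cell types. For *Sox9* to *Cdkn1b* the circles lie at 5.26 CPM or less and the squares at 5.65 CPM or more.

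Of 7 tested Notch ligand and fringe genes none passed, at a median log2 fold change of -4.89. This list leaves out the ligand *Jag1*, which was counted with the supporting cell genes and was called lower in OHCs. *Dll3* had no count in the OHC libraries and was at 48.3 and 69.9 CPM in the cHC libraries (adjusted p = 0.0529), *Mfng* likewise at 59.6 and 150.4 CPM (adjusted p = 0.0594), and *Dll1*, the ligand of nascent hair cells, was at 0 and 0.337 against 20.9 and 69.8 CPM (adjusted p = 0.112). At an unadjusted p under 0.05 the whole table held 1283 higher and 1974 lower genes.

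Immediate early genes are switched on within minutes of a stimulus. Of 24 tested, 5 were lower in OHCs and none was higher, against 2.02% and 1.16% of all tested genes. The median log2 fold change of the list was -5.97. *Fos* was at 0.793 and 0.252 CPM in OHC-A and OHC-B and at 82.5 and 60.6 CPM in cHC-A and cHC-B (log2 fold change -7.16 ± 1.24, adjusted p = 0.0124), *Egr1* at 9.96 and 1.35 CPM in OHC-A and OHC-B and at 499 and 578 CPM in cHC-A and cHC-B (log2 fold change -6.59 ± 1.21, adjusted p = 0.0149) and *Jun* at 4.49 and 4.96 against 163 and 63.9 CPM (log2 fold change -4.58 ± 0.8, adjusted p = 0.0124). *Junb* and *Ier2* were at 0.176 and 1.14 against 27 and 21.7 CPM and 0 and 0.0421 against 32.9 and 21.6 CPM (adjusted p = 0.0345 and 0.0115). The level of *Fos* was 18.1 and 12.3 CPM in OHCs (P7), 45.2 and 161 CPM in IHCs and 907 and 102 CPM in SCs, and that of *Egr1* was 129.5 and 77.4, 166 and 1133 and 2801 and 910.0 CPM. *Fos* and *Egr1* were called in each fit that left out 1 library. Without OHC-A the other 3 lost their calls, and *Junb* also did without cHC-A and without cHC-B. These genes also respond to enzymatic dissociation, and a part of the isolation in their levels was not tested.

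Cell cycle inhibitors of the Cip/Kip family were lower in OHCs. The share called lower was 2.02% over all tested genes. Of 17 tested cell cycle genes, 3 were lower and none higher, and the 3 were *Cdkn1a* at 4.67 and 2.15 CPM in OHC-A and OHC-B and at 122 and 90.2 CPM in cHC-A and cHC-B (log2 fold change -4.97 ± 0.88, adjusted p = 0.0134), *Cdkn1b*, given above, which lost its call without OHC-A and without cHC-A (adjusted p = 0.117 and 0.0502), and *Cdkn1c* at 0.176 and 0 CPM in OHC-A and OHC-B and at 196 and 274 CPM in cHC-A and cHC-B (adjusted p = 0.0137). *Cdkn1c* had 2 counts in the OHC libraries together, a ratio of cHCs to OHCs of 4127 (95% interval of the count 1142 to 34078). The inhibitor *Cdkn2d* (p19Ink4d) was at 96.9 and 125 against 18.8 and 31.5 CPM and did not pass (adjusted p = 0.0946). *Mki67*, a proliferation marker, had no count in the OHC libraries and was at 8.37 and 0.0253 CPM in the cHC libraries, and did not pass the filter on low counts. Of 4 nuclear factor I genes, *Nfia* alone passed, at 49.4 and 63.7 CPM in OHC-A and OHC-B and at 459 and 535 CPM in cHC-A and cHC-B (log2 fold change -3.14 ± 0.5, adjusted p = 0.00937). *Nfib* was at 0.352 and 9.97 against 105 and 118 CPM and *Nfix* at 267 and 33.8 against 21.9 and 3.83 CPM, in opposite directions, and neither passed (adjusted p = 0.0771 and 0.126).

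Microtubule and neurofilament genes moved in both directions. Of 29 tested, 2 were higher and 5 lower in OHCs, against 1.16% and 2.02% of all tested genes. *Tuba8*, an alpha tubulin, was at 289 and 209 CPM in OHC-A and OHC-B and at 0.127 and 0.938 CPM in cHC-A and cHC-B (log2 fold change 8.82 ± 1.25, adjusted p = 0.00572), and the neurofilament light chain gene *Nefl* at 18.9 and 33.1 CPM in OHC-A and OHC-B and at 0.51 and 0.0253 CPM in cHC-A and cHC-B (log2 fold change 6.66 ± 1.51, adjusted p = 0.0387). The lower genes were *Stmn1* at 0.969 and 1.6 against 244 and 219 CPM and *Dpysl3* at 0.352 and 2.52 against 145 and 85 CPM, regulators of growing microtubules and growth cones, the tubulins *Tubb2b* and *Tuba4a* at 1.5 and 0.757 against 55.8 and 48 CPM and 2.82 and 8.83 against 149 and 148 CPM, and *Map1b* (listed as *Mtap1b*) at 188 and 111 against 644 and 1107 CPM (adjusted p = 0.0143, 0.0243, 0.0134, 0.0251 and 0.0341). *Tuba8* was the only 1 of these 7 that was called in each fit that left out 1 library, and none of the 5 lower genes was called without OHC-A. The tubulin paralogs share sequence, and how the counting divided such reads is not given in the sources used here.

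Housekeeping lists served as a measure of scale. None of 76 nuclear oxidative phosphorylation genes passed, with 41 above 0 and 35 below 0 and a median log2 fold change of 0.04. Of 78 ribosomal protein genes, 4 were lower in OHCs, among them *Rps13*, *Rpl31* and *Rps25*, against 2.02% of all tested genes. A negative log2 fold change was found in 77 of the list, with a median of -1.32 with TMM and -1.27 with RLE factors. None of the 4 was called without OHC-A, whereas 11 of the list were without OHC-B and 1 each without cHC-A and without cHC-B. The summed level of this list was 5644 and 6298 CPM in the OHC libraries and 14115 and 15362 CPM in the cHC libraries, and ribosomal protein genes have many processed pseudogenes that share their reads.

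The study selected 52 transcription factor genes, partly on these libraries, so their direction here is not independent evidence. Of the 52, 7 were higher and 12 lower in OHCs (the background shares of all tested genes are 1.16% and 2.02%). Beyond the genes described above, those that rose were *Zfp827*, a zinc finger gene, at 95.8 and 93 CPM in OHC-A and OHC-B and at 0.085 and 0.177 CPM in cHC-A and cHC-B (log2 fold change 9.4 ± 1.34, adjusted p = 0.00572), *Pknox2*, a TALE homeodomain gene, at 262 and 152 CPM in OHC-A and OHC-B and at 1.27 and 0.38 CPM in cHC-A and cHC-B (log2 fold change 7.98 ± 1.11, adjusted p = 0.00572), and *Aff3*, at 239 and 177 against 14.7 and 6.79 CPM (log2 fold change 4.27 ± 0.66, adjusted p = 0.00877), with *Sall3*, *Mlxip* and *Zbtb38* at 622 and 271 against 25.2 and 55.2 CPM, 1018 and 568 against 112 and 68.2 CPM and 899 and 783 against 140.0 and 197 CPM (adjusted p = 0.0411, 0.0189 and 0.0207). Those that fell were *Mycl1*, a member of the Myc family, at 0.176 and 0 CPM in OHC-A and OHC-B and at 118 and 210.2 CPM in cHC-A and cHC-B (adjusted p = 0.0117), on 2 counts in the OHC libraries, a ratio of cHCs to OHCs of 2884 (95% interval of the count 798 to 23816), *Creb3l4*, at 0.0881 and 0 against 34.6 and 39.3 CPM on 1 count (adjusted p = 0.0384), a ratio of 1297 (95% interval of the count 233 to 51226), and *Sall2*, at 0.969 and 3.49 against 198 and 59.1 CPM (log2 fold change -5.82 ± 0.99, adjusted p = 0.0113). Without OHC-A, 4 of the list were higher and 5 lower, and 9 were called in each fit that left out 1 library: *Aff3*, *Lbh*, *Pknox2*, *Zfp827*, *Atoh1*, *Mycl1*, *Nfia*, *Nhlh1* and *Sox9*.

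Among called genes with at least 20 CPM in both libraries of the higher group, the 10 largest rises by fitted log2 fold change included 3 without a count in either cHC library. *Crip3*, which encodes a LIM domain protein, was at 501 and 198 CPM in the OHC libraries, at least 2744-fold higher than in cHCs (adjusted p = 0.00133). *C1ql1*, a secreted C1q-like protein that acts at synapses, was at 295 and 169 CPM, at least 1819-fold higher (adjusted p = 0.0103). *Hsd11b1*, the enzyme that regenerates active glucocorticoid, was at 96.4 and 89.1 CPM, at least 727-fold higher (adjusted p = 0.0251), and was called without OHC-B but not without OHC-A, cHC-A or cHC-B (adjusted p = 0.0819, 0.0586 and 0.0642). *Crip3* was at 8.32 and 25 CPM in OHCs (P7), but *C1ql1* and *Hsd11b1* were at 0.335 CPM or less in each of the other 8 libraries. The other 7 had 1 to 3 counts in the cHC libraries together. They were *A530016L24Rik* (77.4 and 86 against 0 and 0.0253 CPM), *Akap6*, an anchor of protein kinase A (131 and 48.4 against 0.0425 and 0 CPM), *Mia2* (247 and 58.5 against 0.085 and 0 CPM), *Atp6v1c2*, a subunit of the vacuolar proton pump (72.9 and 75.9 against 0.0425 and 0 CPM), *Mpped1* (186 and 35.2 against 0.0425 and 0.0253 CPM), *Lrrc52*, and *Tsku*, a secreted signalling modulator (238 and 81.1 against 0.127 and 0 CPM). Of these, *Mia2*, *Mpped1* and *Tsku* lost their calls without OHC-A (adjusted p = 0.102, 0.122 and 0.0527).

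By the same rule, the 10 largest falls among called genes had no count in either OHC library. After *Atoh1*, they were *Igll1*, a surrogate light chain component of pre-B cells, at 236 and 471 CPM in cHC-A and cHC-B (at least 1338-fold lower in OHCs), *Fer1l6*, a ferlin, at 174 and 227 CPM (at least 758-fold), *Slc14a1*, a urea transporter, at 120.4 and 231 CPM (at least 664-fold), *Myo3b*, *Ifitm2*, an interferon-induced membrane protein, at 68 and 192 CPM (at least 491-fold), *Slc52a3*, a riboflavin transporter, at 57.7 and 166 CPM (at least 424-fold), *Cemip* (listed as *9930013L23Rik*), a hyaluronan-degrading factor, at 158 and 61 CPM (at least 415-fold), *Oacyl* (listed as *5330437I02Rik*) at 36.9 and 163 CPM (at least 378-fold) and *Eya2*, an otic transcriptional cofactor, at 52.8 and 146 CPM (at least 375-fold). Their adjusted p-values by edgeR lay between 0.00322 (*Igll1*) and 0.0471 (*Oacyl*). Without OHC-A the calls of *Slc14a1*, *Ifitm2*, *Slc52a3* and *Oacyl* were lost (adjusted p = 0.0535, 0.0508, 0.0673 and 0.155), without cHC-B those of *Slc52a3* and *Oacyl* (adjusted p = 0.0847 and 0.13), and without OHC-B that of *Oacyl* (adjusted p = 0.103). *Igll1* was at 0.491 and 0.134 CPM in OHCs (P7), 0 and 0 in IHCs and 0.637 and 0.266 in SCs, so both cHC values lay above those of each reference library. The same order held for *Fer1l6* (6.49 and 4.36, 0.0336 and 0 and 0.823 and 0.0887 CPM) and *Slc14a1* (0.191 and 5.43, 0 and 0 and 0.159 and 0.0887 CPM).

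Both directions were then followed in the reference libraries, which belong to neither group compared. They entered the same model and so helped set the filter and the spread of each gene. Calls in these comparisons are therefore not independent of those between OHCs (P22) and cHCs. OHCs (P7) against SCs shares no library with OHCs (P22) against cHCs and lies within 1 series of library numbers. There, 432 genes were higher (2.56% of all genes tested) and 144 lower (0.853%). Of the 196 genes higher in mature OHCs than in cHCs, 101 (51.5% of the list, 23.4% of the genes higher there) were higher in OHCs (P7) than in SCs and none was lower. Of the 341 genes lower in mature OHCs, 55 (16.1% of the list, 38.2% of the genes lower there) were lower in OHCs (P7) than in SCs, and 28 (8.21% and 6.48%) were higher. IHCs against SCs, which crosses the series of library numbers, had 376 higher genes (2.23%) and 71 lower genes (0.42%). In it, 96 of the 196 (49.0%, and 25.5% of the genes higher there) were higher and 2 lower, and 32 of the 341 (9.38%, and 45.1% of the genes lower there) were lower and 12 (3.52%) higher. The IHC libraries carried supporting cell transcripts, with *Gjb2* at 611 and 468 CPM against 393 and 124 CPM in SCs. Without OHC-A the counts of genes higher in both were 55 with OHCs (P7) and 54 with IHCs, and those of genes lower in both were 36 and 22. Without cHC-B the latter were 111 and 57.

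**Figure D5:**
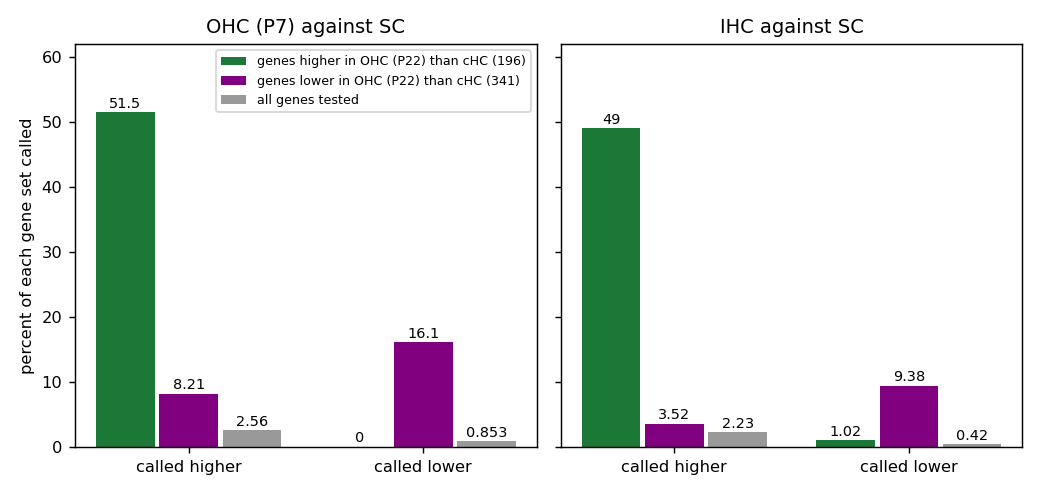
Share of the 196 genes higher (green) and the 341 genes lower (purple) in OHCs (P22) than in cHCs, and of all 16891 tested genes (grey), that were called higher or lower in OHCs (P7) against SCs (left) and in IHCs against SCs (right). Of the green genes, 51.5% and 49.0% were called higher there, against 2.56% and 2.23% of all genes.

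Markers of other cochlear cells were set beside these results. The 10 tectorial membrane and interdental cell genes summed to 15.8 and 24.8 CPM in OHC-A and OHC-B and to 930.2 and 123 CPM in cHC-A and cHC-B, with 2 members called lower, *Otogl* (0.0881 and 0.0421 against 172 and 9.46 CPM, adjusted p = 0.0419) and *Tectb* (0.264 and 0.252 against 36.2 and 1.06 CPM, adjusted p = 0.0378), neither of which was called without OHC-A, OHC-B or cHC-A. The 7 mesenchyme genes summed to 4.76 and 5.72 CPM against 217 and 16.9 CPM, with *Lum* at 178 and 6.59 CPM in the cHC libraries and no count in the OHC libraries (adjusted p = 0.0103). Among the 4 libraries compared, both sums were highest in cHC-A, the library with more *Sox9* and *Gjb2*. In SCs the tectorial and interdental sum was 5217 and 2443 CPM and the mesenchyme sum 1949 and 752 CPM. In OHCs (P7) they were 2583 and 1041 CPM and 80.5 and 404 CPM. Immune genes (9 listed) summed to at most 7.49 CPM and endothelial genes (6 listed) to at most 0.892 CPM in each of the 4 libraries. Globin and other red blood cell genes summed to 28.5 and 7.15 CPM in the OHC libraries and 0.595 and 2.18 CPM in the cHC libraries, with *Alas2* at 28.5 and 5.72 against 0 and 2.18 CPM and no globin gene above 0.799 CPM. Among the 4 libraries compared, Schwann cell genes summed to 81.4 CPM in OHC-A and to 3.16 to 25.2 CPM in the other 3. No member of the immune, endothelial, red blood cell, Schwann cell or stria vascularis lists passed, and of the spiral ganglion neuron list only *Nefl* did. The part of such cells in the differences was not tested.

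Called genes of both directions had longer transcripts than all tested genes at a like base composition. The longest coding transcript had a median of 4073 bases in the higher genes, 3685 in the lower genes and 2959 in all tested genes, and a GC content of 50.3%, 50.3% and 50.4%, among the 96.4%, 98.2% and 83.5% of genes that had one. In OHC-A the median deviation from a gene's mean over all libraries, on the log2(CPM + 1) scale, was -0.589 for the 2823 genes with the shortest transcripts and -0.162 for the 2821 with the longest.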

How the data were processed

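Handpicked fluorescent cochlear cells were sequenced as amplified cDNA (NuGEN Ovation) in 10 libraries, 2 for each of 5 cell types. The deposited files hold raw counts of reads per gene, which the authors made from paired-end reads with CASAVA 1.7, Cutadapt, STAR and BWA (mm9) and HTSeq. Whether counting used strand is not given in the sources used here. In 4 of 10 records the attached file carried the name of another library, so each file was assigned by matching its name to a sample title. The not aligned, ambiguous and no-feature rows were left out of library sizes.

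Of 34590 listed genes, 23415 had a count and 16891 passed filterByExpr. All 10 libraries were fitted in 1 model with edgeR 4.0.16 (R 4.3.3), TMM factors and the quasi-likelihood test, with Benjamini-Hochberg adjustment over all genes and a threshold of 0.05. The study names limma-voom, which was run as an alternative (limma 3.58.1), as was DESeq2 1.42.0. SE is the absolute log2 fold change divided by the square root of F. The scripts were tested on simulated data. A group without counts was set to 3 counts per library, at the less sensitive of its 2 libraries, to give a bound. Ratios on 1 to 3 counts have exact 95% Poisson intervals that cover counting error only. Named genes were the 10 largest changes in each direction among called genes with at least 20 CPM in both libraries of the higher group, and members of 27 gene lists. Members and lists were chosen with earlier results of these data known. Coordinates are from GENCODE on mm9, and current symbols are from RefSeq synonyms. Values of some list members are not reported here, while list counts and medians include all members.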

Additional observations from a re-analysis of the deposited data

How the results depend on the processing

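Against 196 higher and 341 lower genes by edgeR, DESeq2 called 998 and 1728, limma-voom 368 and 562, edgeR without a filter 557 and 1034, and edgeR on the 4 libraries alone 107 and 203. With at least 10 counts in each of the 4 libraries, which removes genes absent from 1 group, 147 and 147 were called of 8632 tested. With the tables taken as attached, 0 and 0 were called. Leaving out 1 library gave 87 to 317 higher and 112 to 420 lower genes, where the lone library of a group is assumed to vary like the other groups, and without OHC-B the median of all genes moved to -1.32. RLE factors gave 197 and 340, and leaving out mitochondrial genes, chosen after seeing the data, gave 198 and 343.

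For OHCs (P7) against SCs, the 101 genes higher in both became 322 with DESeq2 and 55 to 113 without 1 library, and the 55 lower in both became 509 and 36 to 111. For IHCs against SCs, the 96 higher in both became 298 with DESeq2 and 54 to 110 without 1 library, and the 32 lower in both became 406 with DESeq2, 69 with limma-voom and 22 to 57 without 1 library. Of 88 named genes, 88 kept direction and call with DESeq2 and with no filter, 86 with RLE factors, 64 with limma-voom, 51 with the 4 libraries alone and 41 without OHC-A. With the tables as attached, the log2 fold change reversed for *Pvalb* (0.0856) and *Nefl* (-0.99), neither of which passed there. The causes were not tested. No paired analysis was possible because the groups share no replicate numbers. With 2 libraries a group, a p that misses the threshold does not show that a gene did not differ.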

Other observations

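The genes in this paragraph were chosen after their values were seen, from the genes called by edgeR. Among the higher genes, *AI593442*, of which no role is given here, was at 2625 and 1183 CPM in OHC-A and OHC-B and at 2.85 and 1.62 CPM in cHC-A and cHC-B (log2 fold change 9.74 ± 0.64, adjusted p = 0.00016), the lowest adjusted p of the table. *Lmo7*, an actin-associated LIM protein, was at 7878 and 5479 CPM in OHC-A and OHC-B and at 189 and 137 CPM in cHC-A and cHC-B, *Slk*, a kinase, at 3122 and 2435 against 48.4 and 94.3 CPM, *Homer2*, a calcium signalling scaffold, at 1454 and 1618 against 59.3 and 37.1 CPM, and *Lpin2*, a lipid phosphatase, at 3699 and 2726 against 127 and 111 CPM (adjusted p = 0.00116, 0.00101, 0.000845 and 0.000662). The ryanodine receptor genes *Ryr1* and *Ryr2*, which release calcium from internal stores, were at 390.7 and 95.1 against 21.2 and 24.1 CPM and 223 and 175 against 0.297 and 2 CPM (adjusted p = 0.0338 and 0.0134).

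Among the lower genes, *Cdh1*, E-cadherin of epithelial junctions, was at 0.352 and 0.715 CPM in OHC-A and OHC-B and at 524 and 545 CPM in cHC-A and cHC-B (log2 fold change -9.91 ± 0.75, adjusted p = 0.000277). *Nrep* (listed as *D0H4S114*) was at 1.67 and 0.841 CPM in OHC-A and OHC-B and at 559.6 and 881 CPM in cHC-A and cHC-B, *Crim1* at 0.352 and 0.294 against 244 and 141 CPM and *Pde4b*, a phosphodiesterase that degrades cyclic AMP, at 0.441 and 0.715 against 326 and 219 CPM (adjusted p = 0.000649, 0.000845 and 0.000659). *Psat1* and *Phgdh*, enzymes of serine synthesis, were at 0.176 and 0 against 996 and 762 CPM and 0 and 0 against 80.8 and 15.1 CPM (adjusted p = 0.00113 and 0.0103). *Tnc*, the matrix protein tenascin C, was at 0 and 10.2 CPM in OHC-A and OHC-B and at 1011 and 1613 CPM in cHC-A and cHC-B (log2 fold change -7.99 ± 1.7, adjusted p = 0.0333). The cytoplasmic actins *Actb* and *Actg1* were at 44.5 and 75.7 against 529.8 and 1035 CPM and 68.9 and 59.8 against 265 and 477 CPM (adjusted p = 0.00649 and 0.0299).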
